A study of Drosophila melanogaster with 36 samples.

Results

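Abdomens of mated Drosophila melanogaster females were compared by whether they held transcripts that are made early in embryogenesis. The libraries were chosen by measured values. In the 6 mated abdomens, levels in CPM, counts scaled to a common library total, were summed over bnk, halo, SNCF, Elba1 and Elba3. The sum was at least 3 CPM in 3 abdomens, those of females mated to males of populations M2, P1 and P3, and below 3 CPM in the other 3, from populations M1, M3 and P2. These 6 libraries are part of 18 in the series. The 3 virgin abdomens and the 6 mated heads served as further measurements.

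All females came from the base population named IV in the labels, and each library pooled tissue of 20 of them, frozen at 4 days of age. Virgins had not been mated, and the mated females had been mated at 3 days, so 24 h separated mating and freezing. Their males came from 6 populations with 182 generations of experimental evolution and 1 further generation in a common garden, each of census size 200. Populations M1, M2 and M3 had evolved under monogamy, and P1, P2 and P3 under polygamy in groups of 5 females and 5 males. Each population of males gave 1 mated abdomen and 1 mated head library, so M1 to P3 name the mates of the females and not the females themselves. Totals of the 6 mated abdomens ranged from 41057456 to 56772245 counts. A count of 0 therefore allowed at most 0.0528 to 0.0731 CPM in a mated abdomen, taking 3 counts as the floor and covering counting error only.

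A fly embryo starts on RNA that the mother loaded into the egg. Its own genome is switched on in waves, and the genes switched on earliest are mostly short and intronless and serve sex determination, the slowing of the cell cycle and cellularisation, in which membrane encloses the nuclei of the syncytium. Gap, pair-rule and segment polarity genes then divide the body axis, while dorsoventral genes such as sna and rho pattern it from belly to back. Near the end of embryogenesis the epidermis switches on Osiris and cuticle protein genes, and the larval cuticle is laid down.

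The 5 genes that chose the libraries are given as a description, with no test. Elba1 and Elba3, which encode parts of a boundary factor of the early embryo and lie close together on chromosome arm 2L, were at 2.70 and 3.36 CPM in M2, 1.96 and 1.13 in P1, and 2.33 and 3.25 in P3. Elba1 had no count in M1, M3, P2 or any virgin, and Elba3 stood at 0.0352 CPM in M1 and at 0 in M3 and P2. The gene bnk, which times the closure of the cellularisation furrows, was at 2.43, 1.43 and 3.33 CPM in M2, P1 and P3, against 0.0528, 0 and 0.0365 CPM in M1, M3 and P2. All of these values in M2, P1 and P3 lay above all those in the other mated abdomens and the virgins. For halo, whose product controls lipid droplet transport, the values were 1.72, 2.00 and 4.07 CPM against 0.106, 0.0244 and 0.0182. SNCF reached 4.43 CPM in P1, with 1.37 in M2 and 1.43 in P3, and had no count in M1, M3, P2 or the virgins. P1 thus led for SNCF, M2 for Elba1 and Elba3, and P3 for bnk and halo.

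The 5-gene sum was 11.6 CPM in M2, 10.9 in P1 and 14.4 in P3, the values just inside the threshold being those of P1. Below it lay M1 at 0.194 CPM, P2 at 0.0547 and M3 at 0.0244, and the virgins at 0, 0.0366 and 0.0213. No library fell near the threshold of 3 CPM. Each of the 2 sequencing runs taken alone divided the libraries the same way. In the mated heads the sum was 0.310 to 0.457 CPM, of which halo made up nearly all, with 0.276 to 0.434 CPM in each head.

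Most other genes of the earliest zygotic wave were higher in the same 3 abdomens. Of 23 such genes in the table, 19 had at least 20 counts over the 6 mated abdomens, and M2, P1 and P3 all exceeded M1, M3 and P2 for 14 of them, while none lay below and 5 overlapped. Over all 11393 genes with 20 counts, 5.77% lay above in that way and 3.29% below. For 9 of the 19 the lowest of M2, P1 and P3 was at least 2-fold the highest of M1, M3 and P2, against 0.36% of all genes, with a highest value under 3 counts replaced by that floor. The split was made on transcripts of these same libraries, so these shares are a description and carry no test. Fewer embryonic cells and less RNA per cell cannot be told apart in pooled tissue.

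**Figure D1:**
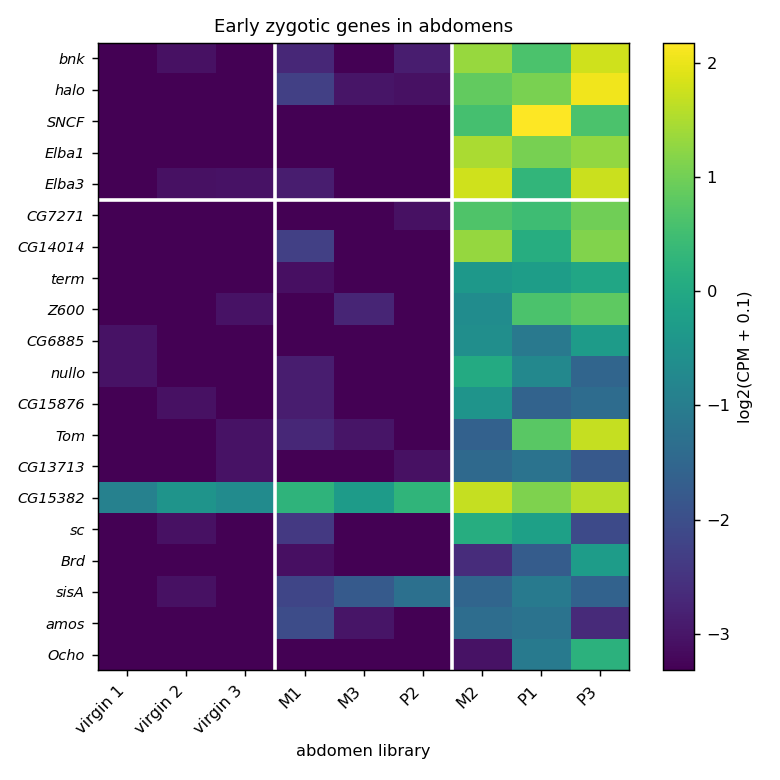
Levels of early zygotic genes in the 9 abdomen libraries, as log2(CPM + 0.1) by colour. Rows above the horizontal white line are the 5 genes that chose the libraries, and rows below it are the 15 other genes of the early list that stayed below 1 CPM in every virgin and had at least 20 counts over the mated abdomens. Vertical white lines part the virgins, the abdomens of M1, M3 and P2 and the abdomens of M2, P1 and P3, and the 3 columns on the right are the brightest for most rows.

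Among the genes of cellularisation, nullo (X:7049476-7050321, BDGP6, like all coordinates below), which keeps actin at the furrow tips, was at 0.933 CPM in M2, 0.494 in P1 and 0.248 in P3. It was at 0.0352 CPM in M1 and had no count in M3 and P2. CG14014 (2L:5549709-5550835), an early zygotic gene with no role given here, was at 2.39, 0.970 and 2.103 CPM in M2, P1 and P3 and at 0.106, 0 and 0 CPM in M1, M3 and P2, so the lowest of the first set was 9.18-fold the highest of the second. CG6885, likewise, had 0.560, 0.366 and 0.707 CPM and no count in M1, M3 or P2, which makes it at least 5.01-fold higher. Groups did not overlap for any of these genes, and virgins had at most 1 count of each. Slam, a membrane trafficking gene of cellularisation, is also loaded by the mother. It lay above as well, but by a gap of only 1.02-fold. It stood at 79.5, 73.8 and 74.2 CPM in M2, P1 and P3, 72.6, 63.9 and 65.1 CPM in M1, M3 and P2, and 92.9, 85.3 and 98.1 CPM in virgins, so all mated abdomens were below all virgins. Sry-alpha and sala, also on the list, had no count in any abdomen.

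Of genes that act at the slowing of the cell cycle, Z600 (3L:15509061-15509513), an inhibitor of mitotic entry also known as frühstart, was at 0.539, 1.43 and 1.66 CPM in M2, P1 and P3. In M1, M3 and P2 it had 0, 0.0487 and 0 CPM. Z600 overlaps the gene gdl on the same strand, and reads from such overlaps may be split between genes. The neighbours CG7271 (3L:18588759-18590165) and term (3L:18592303-18593771) had the same pattern. CG7271 had 1.49, 1.28 and 1.89 CPM in M2, P1 and P3 and 1 count in all of M1, M3 and P2 together. Term had 0.664, 0.732 and 0.860 CPM and likewise 1 count in the other 3.

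Bearded family genes, which restrain Notch signalling, graded among the 3 abdomens. Tom was at 3.12 CPM in P3, 1.61 in P1 and 0.228 in M2, Ocho at 1.05, 0.384 and 0.0207 CPM, and Brd at 0.726, 0.201 and 0.0622 CPM in the same order. These 3 genes lie within 6.70 kb on 3L. P3 was highest and M2 lowest for each, which is not the order of the 5-gene sum, where M2 lay above P1. In M1, M3 and P2 none of them exceeded 0.0528 CPM, and for Ocho those 3 libraries had no count, so that its value in M2, 1 count, separated the groups by 1 read. The E(spl)m4-BFM gene, another Bearded family member, named here after its values were seen, had 1.24 CPM in P3, 0.567 in P1 and 0.290 in M2 and no count in the other mated abdomens.

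The X-linked signal elements sisA and sc, counted by the embryo to set its sex, parted ways. The sc gene was at 0.975 CPM in M2, 0.769 in P1 and 0.134 in P3, against 0.0881 in M1 and 0 in M3 and P2. For sisA, P2 at 0.310 CPM lay among M2, P1 and P3 at 0.249, 0.384 and 0.229 CPM, while M3 at 0.195 and M1 at 0.123 lay below them, so the groups overlapped. Virgins had 1 count of sisA over 3 libraries, and sisA is thus present in all 6 mated abdomens and nearly absent in virgins.

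Summed over the 19 genes of the list that stayed below 1 CPM in every virgin, the level was 12.5 CPM in M2, 11.8 in P1 and 16.2 in P3. It was 1.74 CPM in M1, 1.48 in P2 and 0.999 in M3, and 0.474 to 0.677 CPM in virgins. M1, M3 and P2 therefore each lay above every virgin. Most of the sum in those libraries came from CG15382, which overlaps aop on the opposite strand, at 1.09 CPM in M1, 0.706 in M3 and 1.11 in P2. The 4 genes of the list that virgins held at 1 CPM or more, Ance, Elba2, slam and tld, dominated the sum over all 23, which was 266, 271 and 261 CPM in M2, P1 and P3 and 230, 232 and 246.5 CPM in M1, M3 and P2.

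Genes of the next wave separated the libraries less. Among gap and terminal genes, 4 of 12 lay above, tll, Kr, oc and hkb, and none lay below, against 5.77% and 3.29% of all genes. The terminal gene tll (3R:30852315-30854400) was at 0.207, 0.275 and 0.401 CPM in M2, P1 and P3, with 1 count in all of M1, M3 and P2. Kr, a gap gene of the trunk (2R:25226611-25231394), was at 1.20, 1.45 and 2.58 CPM against 0.335, 0.0731 and 0.511 CPM, the lowest 2.36-fold the highest, and virgins held 0.613, 0.0732 and 0.553 CPM. The other gap genes overlapped. For hb, which mothers load into eggs, the 6 mated abdomens had 94.4 to 109 CPM and the virgins 107 to 147.

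Pair-rule genes were highest in P1. Of 9 measured, 6 had their highest value there, while P1 was the highest of the 6 libraries for 12.2% of all genes. The gene ftz (3R:6864324-6866244) was at 0.732 CPM in P1, 0.210 in P3 and 0.0622 in M2. For eve (2R:9979319-9980795) the values were 0.458, 0.0573 and 0.0415 CPM, and for prd (2L:12082995-12085827) 0.513, 0.0765 and 0.0415 CPM. None of these 3 genes had a count in M1, M3 or P2, and P1 held most of the counts of each. The late-acting pair-rule gene opa was at 1.24 CPM in P1 and at 0.0622 to 0.164 CPM in the other 5, so P3 lay among M1, M3 and P2 and M2 lay below them. As a whole 4 of the 9, eve, ftz, prd and run, lay above, against 5.77% of all genes.

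P3 stood out for genes of a later step. The pair-rule gene slp1, which also acts in segment polarity, was at 1.30 CPM in P3 and at 0.207 to 0.421 in the other 5, and wg, the Wnt ligand of segment borders, was at 0.879 in P3 and 0.237 to 0.373 elsewhere. The homeobox gene en had 0.879 CPM in P3, 0.436 in M2, 0.421 in P1 and 0.310 to 0.388 in M1, M3 and P2. Of 14 segment polarity and homeotic genes 9 were highest in P3, where P3 was the highest for 32.5% of all genes. Against 5.77% of all genes, 3 of the 14 lay above, Dfd, en and hh, by gaps of 1.92-fold, 1.09-fold and 1.05-fold. The tracheal and salivary regulator rib reached 2.08 CPM in P3 and 0.0176 to 0.293 CPM elsewhere, and the Notch target E(spl)mgamma-HLH, named after its values were seen, had 0.937 CPM in P3 and at most 0.0366 in the other 5.

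Genes of the body's second axis and of the nervous system gave intermediate counts. Among 20 dorsoventral and gastrulation genes 5 lay above, sna, Doc2, rho, sog and fog, and none below, against 5.77% and 3.29% of all genes. Their gaps were 1.52-fold, 1.35-fold, 1.16-fold, 1.04-fold and 1.01-fold, and virgins held fog at 94.1 to 113 CPM. The mesoderm gene sna (2L:15476593-15478260) was at 0.166 CPM in M2, 0.879 in P1 and 0.726 in P3, against 0, 0.0244 and 0.109 in M1, M3 and P2. The proneural genes l(1)sc and ac and the neuroblast gene dpn lay above among 8 genes of neuroblasts and glia. Dpn was at 1.99, 1.78 and 1.80 CPM against 1.55, 1.32 and 1.37, a 1.15-fold gap, and virgins held 1.41 to 1.79 CPM. Ac had 5, 6 and 12 counts against 1, 0 and 0. L(1)sc had 0.290, 0.439 and 0.803 CPM in M2, P1 and P3 and 1 count in the other 3 together. Repo, a glial regulator, was the 1 gene of these 8 that lay below, at 0.332, 0.275 and 0.325 CPM against 0.370, 0.585 and 0.347. Summed, the list of neuroblasts and glia was at 5.93, 10.1 and 9.14 CPM against 5.37, 5.43 and 5.35. The largest part of this sum was mira, at 2.32, 5.77 and 3.48 CPM against 2.20, 2.31 and 2.34, and mira itself overlapped between the sets. Of 14 genes of organ primordia 1 lay above, rib, which is near the share of all genes.

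Outside these lists, the largest separations were again in genes that virgins hardly held. The gene bard (3R:18081048-18082583) was at 3.46, 2.62 and 4.97 CPM in M2, P1 and P3 and at 0.141, 0 and 0.0182 CPM in M1, M3 and P2, the lowest 18.6-fold the highest. CG13427 (2R:20538877-20539316) was at 0.996, 4.83 and 3.63 CPM and had no count in the 3 others or the virgins, at least 13.6-fold higher. The gene dunk (2L:22151623-22152640), which acts on myosin during cellularisation, was at 1.68, 1.12 and 2.52 CPM against 0.194, 0.146 and 0.164, a 5.76-fold gap. None of these groups overlapped. Scw, a BMP ligand of the early embryo, had 0.871, 0.513 and 0.650 CPM against 0.0881, 0 and 0.0365, a 5.82-fold gap. Bro, a partner of Runt proteins, had 0.747, 0.549 and 0.745 CPM against 0.0528, 0 and 0.0182, and CG8960 had 0.850, 1.54 and 1.24 CPM against 0.0352, 0 and 0.0547. In all, 41 genes lay above with a gap of at least 2-fold. Of these, 5 had chosen the libraries, 12 others were in the embryo lists and 24 were outside them, 23 of the 24 at less than 1 CPM in every virgin. The count of 41 became 67 without M2 and 88 without M3.

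Other genes that lay above were already present in virgins. Mal-A1, a maltase gene that overlaps Cyp4e1 on the other strand (2R:8449664-8451904), was at 69.3, 77.5 and 87.0 CPM in M2, P1 and P3, 20.3, 35.4 and 16.8 CPM in M1, M3 and P2, and 126 to 192 CPM in virgins. The groups did not overlap, and M2, P1 and P3 lay between the other mated abdomens and the virgins. CG8093 followed with 25.2, 25.4 and 29.7 CPM against 11.6, 13.6 and 2.48, and mat with 9.23, 6.77 and 6.84 against 1.66, 4.34 and 3.34. The gap was 1.96-fold for Mal-A1, 1.85-fold for CG8093 and 1.56-fold for mat.

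Few genes were separated downward. A gap of at least 2-fold was seen for 1 gene, 0.00878% of all, CR17024, with 0.0830, 0.0915 and 0.0573 CPM in M2, P1 and P3 against 0.247, 0.195 and 0.237 in M1, M3 and P2. Among genes with more counts the largest was Cda4, a chitin deacetylase gene (X:22583634-22632710), at 0.436, 0.439 and 0.363 CPM against 0.775, 0.926 and 2.15 CPM, a 1.76-fold gap. Cubn2, which encodes a cubilin receptor, was at 1.18, 1.76 and 2.12 CPM against 3.59, 3.22 and 4.31 CPM, a 1.52-fold gap. The 8 further genes named by the rule had gaps of 1.23-fold to 1.38-fold.

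**Figure D2:**
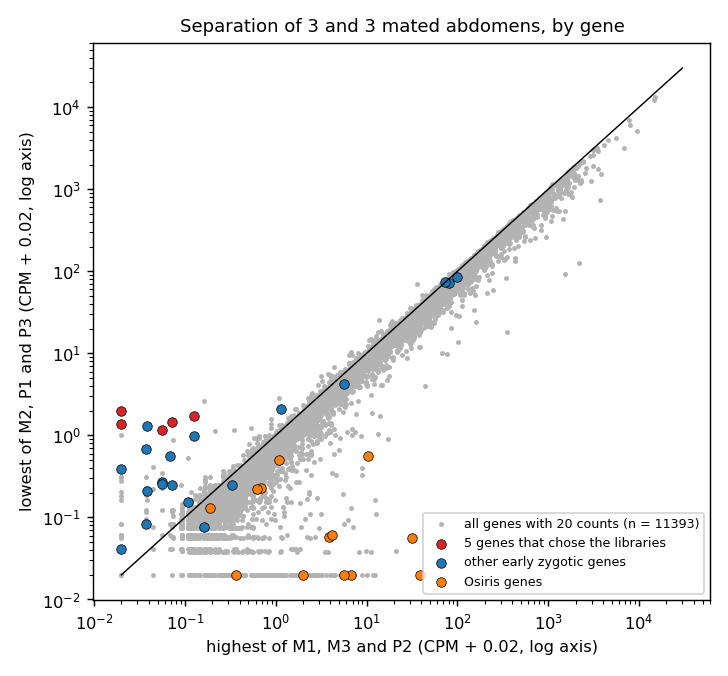
Each point is a gene with at least 20 counts over the 6 mated abdomens (n = 11393). The horizontal axis gives its highest level in M1, M3 and P2 and the vertical axis its lowest level in M2, P1 and P3, both as CPM + 0.02 on log axes. Points above the diagonal are genes whose groups do not overlap upward. Most early zygotic genes lie above it, with slam close to it, while Elba2, Ance, tld, sisA and amos lie below it. Osiris genes lie below it, with Osi6 and Osi7 farthest to the right.

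Transcripts that embryos make near hatching did not follow the division. Of 13 Osiris genes, which form a cluster on 3R and act in cuticle and trachea, none lay above and 1 lay below, and 12 were highest in P2, which was the highest for 19.1% of all genes. Osi6 (3R:6234708-6237181) was at 38.9 CPM in P2, at 0.0732 in P1 and at 0 to 0.0382 in M1, M2, M3 and P3. Osi7 (3R:6248994-6251683) was at 31.9 CPM in P2 and 0.0352 to 0.172 in the other 5. Osi15 had 6.75 CPM and Osi20 5.66 CPM in P2, each with at most 2 counts in any other mated abdomen. P2 was thus alone with these genes, although it had 3 counts of the 5 early genes together. The summed level of the Osiris genes was 107 CPM in P2, 2.34 to 4.87 CPM in the other 5 mated abdomens and 0.553 to 1.03 CPM in virgins.

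Tweedle and larval cuticle genes, which encode proteins of the larval cuticle, were shared by M2 and M3. TwdlL (3R:26624587-26625652) was at 8.84 CPM in M2 and 8.79 in M3, TwdlB at 7.26 and 6.84, and TwdlM at 9.002 and 9.94. P1 and P3 had at most 2 counts of each of these genes, and M1 and P2 at most 4. M2 is among the abdomens with early zygotic transcripts and M3 is not. The near-identical copies Lcp65Ag2 and Lcp65Ag3, between which reads cannot be assigned with confidence, stood at 13.3 and 10.6 CPM in M2 and 12.6 and 11.6 in M3, with at most 0.229 CPM in the other 4. P2 instead held TwdlF, at 11.2 CPM against 0.0183 to 0.0573 elsewhere, and TwdlG, at 2.06 CPM against 0.0176 to 0.353. Over the 20 cuticle genes measured, M2 was highest for 8, which it was for 14.3% of all genes. P2 was highest for 9 of the 20, M3 for 2, against 11.4% of all genes, and M1 for 1, against 10.5%. None lay above or below.

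**Figure D3:**
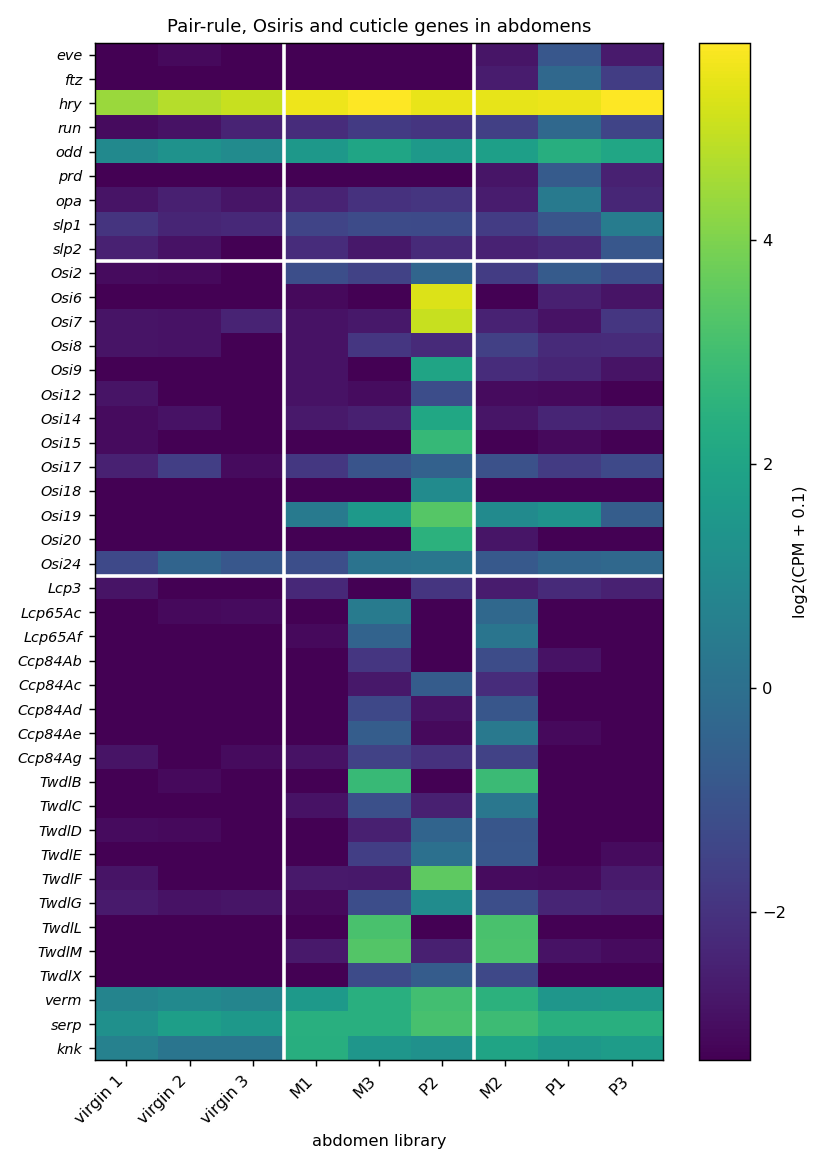
Levels of pair-rule, Osiris and cuticle genes with at least 20 counts over the mated abdomens, as log2(CPM + 0.1) by colour, with horizontal white lines between the 3 lists. All pair-rule genes but hry, which is brightest in M3, are brightest in P1 or P3, most Osiris genes in P2, and TwdlB, TwdlL and TwdlM in M2 and M3.

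The long non-coding RNA roX1 (X:3857230-3862697), which coats the single X chromosome of males for dosage compensation, was at 0.198, 0.3296 and 0.0638 CPM in virgin abdomens and at 7.53 to 10.3 CPM in the mated heads. In mated abdomens it was at 5.85 CPM in P3, 3.12 in M3, 2.36 in P1, 1.99 in M2, 1.08 in P2 and 0.423 in M1. M3 lay among M2, P1 and P3, so the groups overlapped. Markers of male tissue were low or absent. The sperm genes djl, ProtA and ProtB and the seminal protein genes SP and Acp29AB had no count in any abdomen, and dj had 1 count in all. Over 18 testis genes the sum was 1.85 to 2.69 CPM in mated abdomens and 2.21 to 2.33 in virgins, nearly all from Mst36Fa and Mst36Fb. Over 16 seminal fluid genes it was 0.128 to 0.373 CPM in mated abdomens and 0.085 to 0.119 in virgins. Each mated abdomen thus lay above each virgin, at low levels, and the source of these few reads was not tested.

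The label that sets abdomens with embryo transcripts against those without therefore held for most genes of the earliest wave and some patterning genes, but not for genes of late embryogenesis. M3 held Tweedle and larval cuticle transcripts and P2 held Osiris transcripts. M1 had neither at the levels of those libraries, although Osi19, Osi2, sisA and roX1 were higher in M1 than in any virgin. Osi2 was at 0.352 CPM in M1 and at most 0.0198 CPM in virgins, and sisA at 0.123 against at most 0.0183 CPM. The 5-gene sum was 0.194 CPM in M1 and at most 0.0366 CPM in virgins, while Elba1 and SNCF had no count in M1. Every mated head held more roX1 and Osi2 than any abdomen, and the source of these reads in M1 was not tested. The 3 abdomens M1, M3 and P2 are accordingly described here only as low in the 5 genes. They are not taken to be free of embryonic RNA, and for M1 its presence was not shown. M1 had no gene at 4-fold or more over every other mated abdomen, a count chosen after values were seen, while P2 had 55, P1 and P3 had 8 each, M3 had 2 and M2 had 1. That gene of M2 was a ribosomal RNA pseudogene, 18SrRNA-Psi:CR41602, at 2819 CPM against 411 to 669 CPM in the other 5.

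Among sums of adult tissue markers, those of fat body and spermathecal genes parted the 2 sets of abdomens, and the others overlapped. The 4 yolk genes summed to 11278 CPM in P3 and 13172 in M2, the lowest of the 6, but to 18972 in P1, among the 18515 to 22084 of M1, M3 and P2. Eggshell genes summed to 8386 CPM in P3 and 10911 in M2, with 12835 in M1, 15497 in P1, 17243 in M3 and 20321 in P2. Virgins had 5179 to 6398 CPM of yolk and 1940 to 2536 CPM of eggshell genes. Of the 18 eggshell genes 3 lay below, psd, Vm32E and Vml, by gaps of 1.11-fold, 1.05-fold and 1.02-fold, against 3.29% of all genes. Of the yolk genes Yp1 lay below by a gap of 1.02-fold. M2 and P3 thus combined high early zygotic levels with the lowest yolk and eggshell sums, and P1 did not.

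Fat body genes summed to 6698, 8867 and 6411 CPM in M2, P1 and P3, all below the 10637, 9026 and 9892 CPM of M1, M3 and P2. Most of this sum was Yp1, which is also on the yolk list, at 5766, 7939 and 5173 CPM against 9454, 8063 and 8977. Without Yp1 the fat body sums were 932, 927 and 1238 CPM against 1182, 963 and 915, and the sets overlapped. Spermathecal genes summed to 187, 171 and 198 CPM in M2, P1 and P3, all above the 162, 164 and 167 CPM of M1, M3 and P2. Among 9 genes Send1 and Hr39 lay above, by gaps of only 1.03-fold and 1.02-fold. Virgins had 116 to 128 CPM of the spermathecal genes. The part of these tissues in the differences above was not tested.

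Muscle genes summed to 3046 to 3458 CPM, renal tubule genes to 1157 to 1272 CPM, and genes of the ovulating tract to 158 to 212 CPM in the 6 mated abdomens. Midgut proteases were at 7694 CPM in P1 and 3617 in P3, both within the set with early zygotic transcripts, and at 4450 to 6182 CPM in the other 4. Maternal and egg activation genes summed to 14182, 12587 and 14125 CPM in M2, P1 and P3 and to 12866, 12986 and 11832 CPM in M1, M3 and P2. Of the 32 genes none lay above and 1 lay below, the eggshell patterning gene pip at a gap of 1.11-fold. Of 10 factors listed for the passage from maternal RNA to the embryo's own, none lay above or below. Heat shock genes summed to 5498 to 6819 CPM, and Hsp70Bb, whose copies are nearly identical, was at 67.0, 18.3 and 56.3 CPM in M1, M3 and P2 and at 10.1, 41.8 and 10.2 CPM in M2, P1 and P3.

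**Figure D4:**
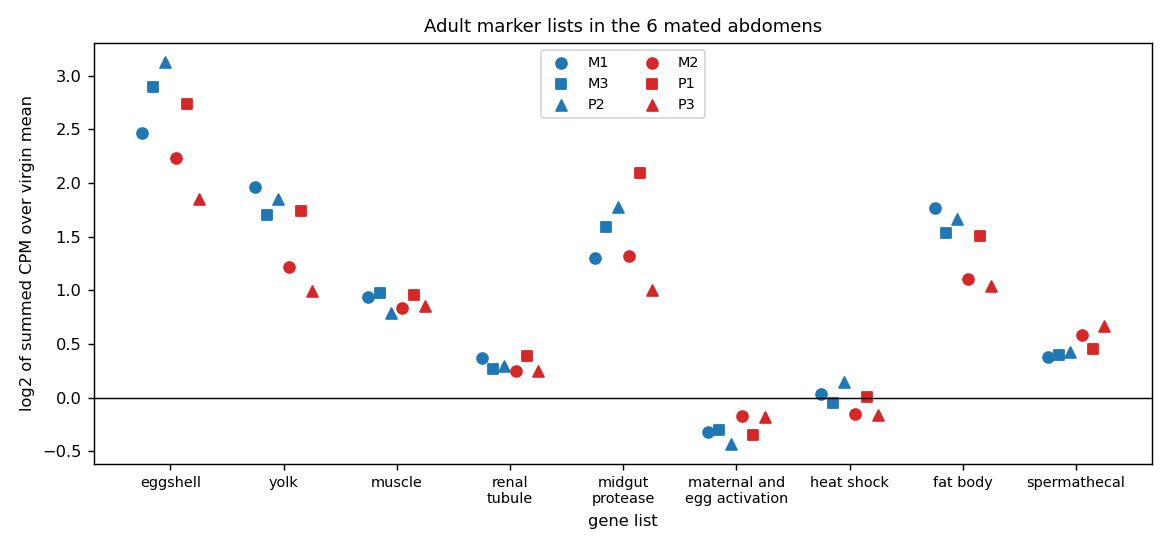
Summed CPM of lists of marker genes (eggshell, yolk, muscle, renal tubule, midgut protease, maternal and egg activation, heat shock, fat body, spermathecal) in each mated abdomen, as the log2 ratio to the mean of the 3 virgins. Blue points are M1, M3 and P2 and red points are M2, P1 and P3, and the colours overlap in every list but fat body, where red lies below blue, and spermathecal, where red lies above.

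The 6 mated heads carry the same population names and were an independent measurement, since no head library helped to choose the populations. With edgeR's quasi-likelihood test and Benjamini-Hochberg adjustment over all genes tested, heads of M2, P1 and P3 did not differ from heads of M1, M3 and P2 for any of 10703 genes, a share of 0%, at an adjusted p below 0.05. At an unadjusted p below 0.05 there were 195 genes, and DESeq2 called 10, of which 8 were lower. Without M1 there was 1 call and without P2 there were 4. Of the early list 5 genes passed the filter in heads, and none was called. In 2 heads, M1 and M2, 1 from each set, midgut proteases summed to 6138 and 13287 CPM, against 11.8 to 92.5 CPM in the other 4.

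The neighbours CG12224 (3R:11980704-11982062) and CG3397 (3R:11983098-11984541) had among the smallest unadjusted p values in heads, although neither passed the adjustment. CG12224 was at 15.5, 13.1 and 12.6 CPM in heads of M2, P1 and P3 and at 7.07, 10.2 and 7.92 in heads of M1, M3 and P2. In abdomens it was at 10.4, 10.8 and 10.6 CPM against 6.41, 5.97 and 6.68, so neither tissue showed an overlap. The log2 difference in heads was 0.69 ± 0.14 (SE, n = 3 and 3, edgeR adjusted p = 0.9998). CG3397 was at 26.4, 29.3 and 22.5 CPM against 15.9, 17.7 and 16.6 in heads, and at 9.58, 13.6 and 10.6 CPM against 8.16, 7.45 and 8.68 in abdomens. Its log2 difference in heads was 0.62 ± 0.11 (edgeR adjusted p = 0.9998). The other genes of smallest p, CG3036, CG42329 and CAH9, overlapped in abdomens.

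Mated abdomens as labelled, all 6 together, were also compared with the 3 virgins. By edgeR, 29% of 10350 genes were higher in mated abdomens and 25.2% lower, with a median log2 change of 0.04 over all genes. Of the 15 tested genes of the early list 4 rose, 2 fell and 9 did not pass. SisA rose by 2.63 ± 0.38 on the log2 scale (SE, 6 mated and 3 virgin libraries, edgeR adjusted p = 5.2e-04), and all 6 mated abdomens lay above all virgins. CG15382 rose by 1.73 ± 0.47 (edgeR adjusted p = 0.0118), tld, a protease that frees BMP ligands, by 1.04 ± 0.26 (edgeR adjusted p = 0.00683), and Ance, a peptidase gene, by 0.58 ± 0.20 (edgeR adjusted p = 0.0390).

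The maternally loaded genes slam and Elba2 fell in mated abdomens, slam by a log2 change of -0.33 ± 0.08 (edgeR adjusted p = 0.00611) and Elba2 by -0.50 ± 0.10 (edgeR adjusted p = 0.00243). Without M2, P1 and P3 together, 1 early gene rose, sisA, by 2.52 ± 0.48 (edgeR adjusted p = 0.00587). There tld had a change of 0.84 ± 0.33 (edgeR adjusted p = 0.0693), Ance of 0.51 ± 0.31 (edgeR adjusted p = 0.228) and CG15382 of 0.88 ± 0.31 (edgeR adjusted p = 0.0532). None of these 3 passed with the 3 mated abdomens left. The number that rose was 9 without P2, with Tom at 3.66 ± 0.61 (edgeR adjusted p = 0.0018) among them, 2 without virgin 1, and 13 with DESeq2.

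Of the later embryo lists, gap and terminal genes had 7 of 12 higher and none lower in mated abdomens, dorsoventral genes 14 of 18 higher and 1 lower, and segment polarity and homeotic genes 8 of 9 higher and none lower. Organ primordia genes had 11 of 12 higher and none lower, and genes of neuroblasts and glia 2 of 5. Of 9 pair-rule genes only 4 were tested, hry, odd, run and slp1, and all 4 were higher. Virgins held hry at 21.2 to 31.5 CPM, odd at 1.90 to 2.36, and run and slp1 at no more than 0.158. Eve, ftz, prd, opa and slp2 did not pass the expression filter and were not tested. Over all genes 29% were higher. Lists of adult tissue rose too, muscle genes with 15 of 15 and midgut proteases with 20 of 22 higher. Maternal and egg activation genes had 4 of 32 higher and 15 lower. Virgin abdomens held many of the later embryo genes at more than 1 CPM, such as fkh at 7.75 to 10.5 CPM and abd-A at 6.46 to 9.10 CPM. The change of rib was 2.98 ± 0.99 (edgeR adjusted p = 0.0306), with P3 far above the rest, and the adjusted p ranged up to 0.0888 when a library was left out. The calls of rib were lost without M2, M3 or any of the virgins.

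RoX1 rose by 3.35 ± 0.83 (edgeR adjusted p = 0.00970), with every mated abdomen above every virgin, and msl-2, which encodes a subunit of the same complex, by 0.44 ± 0.13 (edgeR adjusted p = 0.0131). Osi19 (3R:6335362-6337196), with no count in virgins, was at 1.23, 2.90 and 10.3 CPM in M1, M3 and P2 and at 1.93, 2.40 and 0.535 CPM in M2, P1 and P3. It was called higher in mated abdomens (edgeR adjusted p = 0.0141), as was Osi2, by 3.00 ± 0.39 (edgeR adjusted p = 3.3e-04). Of 23 Osiris genes found, 4 were tested and 3 called higher, these 2 among them, against 29% of all genes. The third, Osi17, lost its call without any 1 of M2, M3, P2, virgin 1 or virgin 3, with edgeR adjusted p up to 0.137. Among 30 cuticle genes, serp, verm and knk rose, 3 of 6 tested, against 29% of all genes. Each of them was present in every virgin, at 1.04 to 3.33 CPM. TwdlB, TwdlL and TwdlM did not pass the expression filter and were not tested. Serp and verm, chitin deacetylase genes, rose by 1.15 ± 0.22 and 1.40 ± 0.39 (edgeR adjusted p = 0.00208 and 0.0143).

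The evolutionary regime of the males was spread over both sets, as M2 came from monogamous males and P1 and P3 from polygamous males. Summed over the early list, abdomens had 259.5 CPM on average with polygamous and 243 CPM with monogamous males, a difference of 16.8 CPM (exact two-sided permutation test, p = 0.3, where 3 against 3 cannot give a p below 0.1). The difference was 4.75 CPM over the 19 members that were below 1 CPM in virgins (exact permutation p = 0.6). By edgeR, 0% of 10350 genes differed between the regimes, with 185 at an unadjusted p below 0.05 and 9 called by DESeq2.

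That comparison depended on M1. Without M1, 79 genes, 0.747% of 10582, were lower with polygamous males and none higher. They included 6 Tweedle genes and 19 genes named Lcp, Cpr or Ccp, and 6 of the 79 were in the cuticle list. TwdlL had a log2 change of -7.80 ± 0.34 there (edgeR adjusted p = 3.7e-04) and Lcp65Ag3 of -7.43 ± 0.37 (edgeR adjusted p = 1.7e-05). M2 and M3, the libraries left on the monogamous side, held these transcripts at the levels given above, and M1 had no count of TwdlL and 0.0352 CPM of Lcp65Ag3.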

How the data were processed

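Heads and abdomens of virgin and mated females were sequenced with a stranded total RNA kit, per the labels' protocols. The submitters' processing notes name Trimmomatic 0.33, TopHat2 2.1.0, HTSeq 0.6.1 and the build BDGP6. The authors deposited raw counts of reads for 17552 genes. No source used here gives the annotation release or strand setting of the counting, so counts of overlapping genes and near-identical copies are uncertain. Of the early list, 8 genes overlap another gene, 4 of them on the same strand.

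Counts of the 2 runs of each of 18 libraries were summed. Symbols and coordinates came from Ensembl release 115 of BDGP6, which held 17387 of the gene identifiers. The members, the 24 gene lists (376 symbols, 9 not found and not analysed here), the tests and the rule for naming genes were chosen with earlier results of these data known. Genes were named by the size of their gap: up to 6 per embryo list and 3 per other list, and outside the lists up to 15 upward and 10 downward with at least 20 counts in each of the 3 higher libraries. Genes from heads were the 5 of smallest p. A few further genes are named as chosen after their values were seen.

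No test was run between M2, P1 and P3 and M1, M3 and P2 in abdomens, because those libraries were chosen on their own transcripts. Their levels are CPM on total counts. The gap is the lowest value of one set over the highest of the other, with a highest value under 3 counts replaced by the largest floor of the 3 libraries, 0.0731 CPM when M1, M3 and P2 are the lower set. Where that highest value was 1 to 3 counts, no fold is given. Heads, mated minus virgin and P minus M were tested on counts with edgeR 4.0.16 in R 4.3.3 (TMM, expression filter, robust quasi-likelihood, prior count of 2), with Benjamini-Hochberg adjustment over all genes tested and a threshold of 0.05. The abdomen model held all 9 abdomens in 3 groups. Scripts were tested on simulated data. Alternatives were DESeq2 1.42.0, other size factors, other filters, each run alone, a replicate block and leaving out each library. The labels do not say that pools came from separate cultures, so p-values measure the spread between pools, which may be technical. Exact permutation tests used SciPy 1.17.1.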

Additional observations from a re-analysis of the deposited data

Results flagged for a closer look

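The summed level of the Osiris genes in the P2 abdomen, 106.6 CPM, stood apart from the other 5 mated abdomens, where it was 2.34 to 4.87 CPM. The gap between P2 and the next library took up more of the whole range than Dixon's 95% critical value allows for 6 samples. Such a value arises by chance in about 1 in 20 groups, and sums of 24 lists were checked. Osi6 and Osi7 made up most of it, at 38.9 and 31.9 CPM. No explanation was tested.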

How the results depend on the processing

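Of the early list, 14 genes lay above. The number was 7 with run 2 alone, 8 among genes with at least 100 counts, where fewer members can enter, and 14 to 15 when any 1 mated abdomen was left out. The 41 genes with a gap of at least 2-fold became 20 with run 2 alone and 47 to 88 when a library was left out. Heads, with 0 calls, gave 10 with DESeq2 and 0 to 4 with a library left out. Early genes higher in mated abdomens, 4 in all, were 13 with DESeq2, 1 without M2, P1 and P3 together and 2 to 9 with 1 library left out. The regime comparison, with 0 calls, gave 9 with DESeq2 and 0 to 79 with a library left out. The cause was not tested, beyond the fewer genes or libraries that a setting leaves.

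Numbers 1 to 3 in the labels were also fitted as a replicate block. Correlations of the deviations of same-numbered libraries ran from -0.497 to 0.025 in abdomens and from -0.598 to 0.576 in heads. As they were not above 0.1 for every pair in either tissue, the numbers were not taken to pair the samples. With the replicate block heads gave 0 calls, mated minus virgin 4893 in place of 5608, early genes higher in mated abdomens 4, and P minus M 7, and the call of Osi19 was lost (edgeR adjusted p = 0.0548).

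The log2 change of dpn with mating, 0.03 and not called, was -0.00949 with DESeq2, -0.20 without M2, P1 and P3 together, and -0.0645 to 0.0985 with 1 library left out, below 0 without virgin 2 and, at -0.0375, without M2. That of Kr, 1.10 and not called, was -0.26 without M2, P1 and P3 together. Of the other values of single genes under an alternative, 348 kept their direction and side of the threshold, 32 lost a call and 19 gained one. The early sum stayed higher with polygamous males in every setting tried, with exact permutation p of 0.2 to 0.6. One of these settings, the sum over members rare in virgins, was chosen after the data were seen. Where a library holds 1 to 3 counts of a gene, single reads decide whether the groups overlap.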
